A study of Mus musculus with 4 samples.

Results

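Sod1, Sod2 and Sod3, the superoxide dismutase genes of the mouse, and Ccs, the gene of the copper chaperone for superoxide dismutase, were followed through single cells of mouse hind limb muscle. The 4 genes were chosen by name, as a protein family and its chaperone, out of 32285 genes in the count matrices, and all 4 were found. Sod1 (ENSMUSG00000022982) lies on the plus strand of chromosome 16 at 90220762 to 90226333, Sod2 (ENSMUSG00000006818) on the plus strand of chromosome 17 at 13007839 to 13018119, Sod3 (ENSMUSG00000072941) on the plus strand of chromosome 5 at 52363804 to 52369738, and Ccs (ENSMUSG00000034108) on the minus strand of chromosome 19 at 4825366 to 4839356, in the RefSeq annotation of GRCm38.p6. No other gene overlapped any of them on the same strand. Sod1 overlapped Scaf4, a protein-coding gene, on the opposite strand, and no source used here gives the strand setting of the counting.

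Superoxide dismutases turn superoxide, a by-product of respiration and a product of NADPH oxidases, into hydrogen peroxide and oxygen. Sod1 encodes the copper and zinc enzyme of the cytosol, which receives its copper from the chaperone Ccs, whereas Sod2 encodes the manganese enzyme of the mitochondrial matrix and Sod3 a secreted copper and zinc enzyme that binds the extracellular matrix. Mice without Sod1 are known for muscle loss and for degeneration of the neuromuscular junction, so the level of the other family members in such muscle bears on whether their RNA was higher where Sod1 was removed.

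The cells came from tibialis anterior and gastrocnemius muscle of male mice aged 2 months that carried the S100GFPtg transgene, whose GFP is driven by the S100B promoter in Schwann cells and in any other cell where that promoter is active. The WT mice carried the transgene alone and the Sod1KO mice carried it on a Sod1-/- background. Muscle of 4 mice was pooled per genotype, live cells were sorted by GFP, and 1 library per sort and genotype was made with 3' single-cell chemistry, so that there were 4 libraries and no replicate of any group. The values therefore compare libraries, the intervals given are 95% intervals that cover counting error only, and no p-value was computed.

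After filtering, 4557 WT GFP+, 5925 Sod1KO GFP+, 1638 WT GFP- and 5143 Sod1KO GFP- cells were kept, with a median of 8082.5 to 14718 unique molecular identifiers (UMIs) per cell. The WT GFP- library was the shallowest and held 21959719 UMIs in all, against 81320146 to 105954116 in the other libraries. Pairs of libraries shared 1 to 13 cell barcodes. The cells formed 36 clusters, of which 22 were named from marker genes in 10 classes, and a class is called "-like" since its name rests on markers alone. The other 14 clusters were kept under their numbers and held 26.9% of the kept WT cells in the GFP+ sort and 49.6% in the GFP- sort, against 27.9% and 35.5% of the Sod1KO cells. Clusters 7, 30 and 34 were held over 80% by the Sod1KO GFP+ library and clusters 19, 26 and 35 by the WT GFP- library. Levels are UMIs of a gene scaled to 1000000 UMIs of its class in a library (CPM, counts per 1000000), and differences are log2 ratios of the Sod1KO to the WT level.

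Sod1, the targeted gene, was read in all 4 libraries. Its level was 91.3 CPM (89.1 to 93.5) in WT GFP+, 98.4 CPM (96.4 to 100.5) in Sod1KO GFP+, 123 CPM (119 to 128) in WT GFP- and 113 CPM (111 to 115) in Sod1KO GFP-. The share of cells with at least 1 Sod1 UMI was 60.9%, 62.4%, 60.1% and 71.1% in the same order. The GFP+ library labelled Sod1KO was thus slightly above, and the GFP- library labelled Sod1KO slightly below, its WT counterpart. The libraries count tags at the 3' end of transcripts, no source used here says which part of the allele was deleted, and a tag outside the deleted part checks nothing, so the tags neither check nor contradict the labels. A Sod1 level from the libraries labelled Sod1KO is therefore a level of tags from the locus, not of a working transcript.

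In the WT GFP+ library, Sod1 was lowest in the smooth muscle-like class with 75.5 CPM, the myelinating Schwann cell-like (mSC-like) class with 78.1 CPM, the tenocyte-like class with 79.2 CPM and the nonmyelinating Schwann cell-like (nmSC-like) class with 81.3 CPM, and the intervals of neighbours in this order overlapped. It was higher in the mesenchymal-like class with 103 CPM and the macrophage-like class with 112 CPM, whose intervals overlapped each other, and highest among the named classes in the endothelial-like class with 145 CPM, whose interval met neither. The highest Sod1 level of all stood in cluster 22, an unnamed cluster of shallow cells led by the endothelial gene Gja5 and ribosomal genes, with 229 CPM (157 to 323) in WT GFP+ and 287 CPM (209 to 385) in WT GFP-, from 32 and 44 UMIs.

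Sod1 tags differed between the genotypes in opposite directions by class. In the tenocyte-like class, the matrix-forming cells of tendon, Sod1 was 79.2 CPM in WT GFP+, 110 CPM in Sod1KO GFP+ and 112 CPM in Sod1KO GFP-. Both Sod1KO libraries thus lay above the WT library, with a log2 ratio of 0.47 (0.38 to 0.56) in GFP+. The higher level was mostly that of cluster 0, led by Wif1, Angptl7 and Chad, with 75.5 CPM in WT GFP+ and 112 CPM in Sod1KO GFP+ and a log2 ratio of 0.57 (0.47 to 0.68). Cluster 17, led by Col22a1, gave 94.4 and 108 CPM and a log2 ratio of 0.19 (0.02 to 0.37). Cluster 0 lost its name under a stricter cell filter and without doublet removal because genes of endoneurial fibroblasts led it there, but its counterpart then gave log2 ratios of 0.58 (0.48 to 0.69) and 0.57 (0.47 to 0.67). The mesenchymal-like class gave 103 and 116 CPM and a log2 ratio of 0.17 (-0.02 to 0.35), and within it cluster 6, led by Pi16, gave 98.9 and 121 CPM and a ratio of 0.29 (0.08 to 0.50).

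Sod1 was lower in the Sod1KO library in both Schwann classes and in endothelial-like cells of the GFP+ sort. It was 78.1 CPM in WT and 67.2 CPM in Sod1KO mSC-like cells, a log2 ratio of -0.22 (-0.43 to -0.01). In nmSC-like cells it was 81.3 and 70.8 CPM, a ratio of -0.20 (-0.36 to -0.03). These intervals only just left out 0. Cluster 8, unnamed, had 9 markers of myelinating Schwann cells but was led by perineurial genes such as Cldn1 and Crabp2. Its ratio was -0.22 (-0.38 to -0.06). The nmSC-like class was made of different clusters in the genotypes, since cluster 14 held 306 of its 383 WT cells and cluster 7 held 605 of its 890 Sod1KO cells, and without the clusters held by 1 library its Sod1 ratio was 0.10. In GFP+ endothelial-like cells Sod1 was 145 and 122 CPM, a ratio of -0.25 (-0.45 to -0.06), whereas in GFP- endothelial-like cells it was 123 and 121 CPM, a ratio of -0.02 (-0.12 to 0.09). The WT GFP+ value stood apart from the other 3 libraries of this class, and within the WT genotype the GFP- level was lower than the GFP+ level by a log2 ratio of -0.24 (-0.40 to -0.09). The clusters of the class differed in this. In GFP+ cells, cluster 9, led by Gkn3 and Gja5, gave 206 and 132 CPM, a ratio of -0.64 (-1.03 to -0.27). Cluster 1, led by Car4 and Gpihbp1, gave 105 CPM in both, a ratio of -0.004 (-0.31 to 0.31). Its WT GFP- level was 120 CPM, so there the WT GFP+ value was not the highest. The smooth muscle-like class, 75.5 and 76.7 CPM, and the macrophage-like class, 112 and 110 CPM, differed by less than their intervals.

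**Figure D1:**
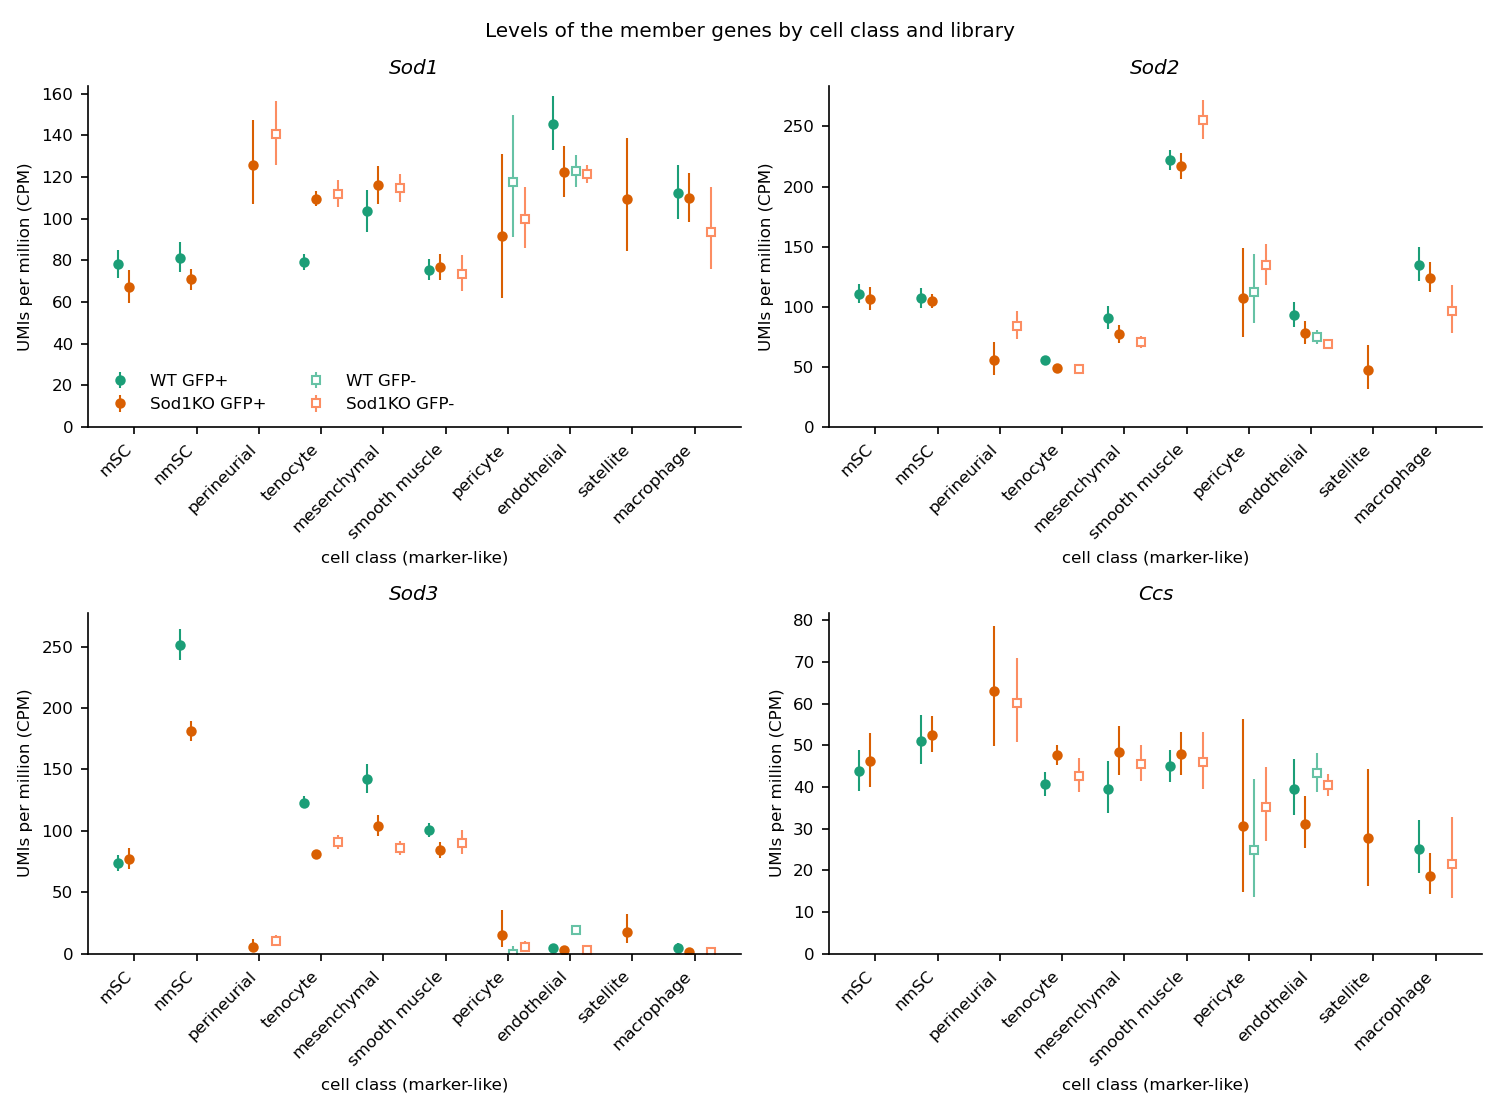
Level of Sod1, Sod2, Sod3 and Ccs (vertical axis, CPM) in each named cell class (horizontal axis) and library, with exact Poisson 95% intervals as bars and 1 point per library with at least 50 cells of the class. Sod2 stands out in smooth muscle-like cells with 222 CPM in WT GFP+, and Sod3 in nmSC-like cells with 252 CPM in WT GFP+ against 181 CPM in Sod1KO GFP+.

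Ccs carries copper to Sod1. By library it was 44.8 CPM (43.3 to 46.4) in WT GFP+, 48.3 CPM (46.8 to 49.7) in Sod1KO GFP+, 45.4 CPM (42.5 to 48.4) in WT GFP- and 42.1 CPM (40.7 to 43.5) in Sod1KO GFP-. In WT GFP+ the named classes ran from 25.1 CPM in macrophage-like cells to 51.1 CPM in nmSC-like cells, and beyond the macrophage-like class the intervals of all neighbours in that order overlapped. In Sod1KO cells the perineurial-like class, the cells that sheathe nerve bundles, was the highest named class with 63.0 CPM in GFP+ and 60.1 CPM in GFP-, and the macrophage-like class again the lowest with 18.7 and 21.4 CPM.

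Ccs was 40.7 CPM in WT GFP+ tenocyte-like cells and 47.7 CPM in Sod1KO GFP+ tenocyte-like cells, a log2 ratio of 0.23 (0.10 to 0.35). The Sod1KO GFP- cells of the class stood in between with 42.6 CPM. Mesenchymal-like cells gave 39.6 and 48.5 CPM, a ratio of 0.29 (0.00 to 0.59). In nmSC-like cells Ccs was 51.1 and 52.5 CPM, in mSC-like cells 43.7 and 46.2 CPM, and in smooth muscle-like cells 44.9 and 47.8 CPM, and none of these pairs differed beyond its counting interval. Cluster 5, unnamed, was led by genes that include the pericyte genes Abcc9 and Kcnj8 but also had 8 endothelial markers. Among comparisons with at least 50 UMIs, the 1 Ccs difference past 1.5-fold was a lower level in its Sod1KO GFP+ cells. Its WT GFP+ cells had 53.4 CPM from 98 UMIs and its Sod1KO GFP+ cells 33.2 CPM from 38 UMIs. The log2 ratio was -0.68 (-1.26 to -0.13), and 11.3% of all genes compared in that cluster lay past the same fold. In GFP- cells of the cluster the ratio was -0.19.

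Sod2, the mitochondrial enzyme, was 111 CPM (109 to 114) in WT GFP+, 87.8 CPM (85.9 to 89.8) in Sod1KO GFP+, 90.0 CPM (85.9 to 94.2) in WT GFP- and 88.3 CPM (86.3 to 90.3) in Sod1KO GFP-. The WT GFP+ library was the highest. The libraries differ in their mix of cell classes, and Sod2 differed several-fold between the classes. Smooth muscle-like cells, the contractile cells of vessel walls, had the highest level of the named classes, with 222 CPM in WT GFP+, 217 CPM in Sod1KO GFP+ and 255 CPM in Sod1KO GFP-, and stood apart from every other named class. Macrophage-like cells followed with 135 CPM in WT GFP+ and 124 CPM in Sod1KO GFP+. The mSC-like class with 111 CPM, the nmSC-like class with 107 CPM, the endothelial-like class with 93.5 CPM and the mesenchymal-like class with 91.0 CPM in WT GFP+ came next, each overlapping its neighbour. Tenocyte-like cells were lowest with 55.5 CPM in WT GFP+, 49.5 CPM in Sod1KO GFP+ and 48.0 CPM in Sod1KO GFP-, beside satellite-like cells, the muscle stem cells, with 47.3 CPM in Sod1KO GFP+.

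The Sod2 interval lay above 0 in none of the 13 GFP+ classes or unnamed clusters with at least 50 UMIs. Their ratios ran from -0.56 to 0.07, and 5 had intervals below 0. Tenocyte-like cells gave -0.17 (-0.28 to -0.05), mesenchymal-like cells -0.24 (-0.45 to -0.03) and endothelial-like cells -0.26 (-0.50 to -0.01). In both Schwann classes Sod2 was close to equal, with 111 and 106 CPM in mSC-like cells and 107 and 105 CPM in nmSC-like cells. In the GFP- sort the ratios of 5 classes or unnamed clusters ran from -0.77 to 0.77. Cluster 16, of shallow cells led by the muscle fibre genes Tnnc2 and Ckm, also had 6 erythroid markers. It gave 119 and 204 CPM, from 15 and 152 UMIs, a ratio of 0.77 (0.01 to 1.65). In this cluster 67.0% of all genes compared passed 1.5-fold. Cluster 10, of shallow cells led by the adipocyte genes Cfd and Retn, also had 7 endothelial markers. It gave 82.0 and 48.0 CPM, a ratio of -0.77 (-1.44 to -0.08), in a cluster where 41.2% of all genes compared passed 1.5-fold. GFP- endothelial-like cells gave 74.5 and 69.2 CPM, and GFP- pericyte-like cells, which wrap capillaries, 112 and 134 CPM. The 2 sorts of 1 genotype differed by as much, since Sod2 in WT endothelial-like cells was lower in GFP- than in GFP+ by a log2 ratio of -0.33.

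Sod3, the secreted enzyme, had the widest spread over cell classes. By library it was 98.3 CPM (96.1 to 101) in WT GFP+, 82.9 CPM (81.0 to 84.8) in Sod1KO GFP+, 28.5 CPM (26.2 to 30.9) in WT GFP- and 32.2 CPM (31.0 to 33.4) in Sod1KO GFP-. The GFP+ fraction of each genotype was thus above its GFP- fraction. In WT GFP+ the nmSC-like class, the Schwann cells that do not form myelin, was highest with 252 CPM, followed by the mesenchymal-like class with 143 CPM, the tenocyte-like class with 123 CPM, the smooth muscle-like class with 101 CPM and the mSC-like class with 73.6 CPM, and no 2 of these neighbours had overlapping intervals. Macrophage-like cells with 4.95 CPM and endothelial-like cells with 4.91 CPM, from 13 and 17 UMIs, overlapped each other at the bottom. The order of the high classes was the same in Sod1KO GFP+ cells at its top, with 181 CPM in nmSC-like and 104 CPM in mesenchymal-like cells, while smooth muscle-like cells with 84.3 CPM, tenocyte-like cells with 81.0 CPM and mSC-like cells with 77.1 CPM overlapped their neighbours there.

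The difference between classes was also seen in the share of cells with a Sod3 UMI. It was 80.4% of WT and 58.5% of Sod1KO nmSC-like GFP+ cells, at a median of 12209 and 9552 UMIs per cell, against 2.57% and 2.86% of endothelial-like GFP+ cells at 10512.5 and 9559 UMIs, a class in which Sod3 was near 0. With every cell thinned to 1000 UMIs, which left out 1 WT and 2 Sod1KO nmSC-like cells and no endothelial-like cell, the shares were 20.4% (16.5 to 24.8) and 13.1% (10.9 to 15.5) in nmSC-like cells against 0.368% and 0.408% in endothelial-like cells. Thinned shares in tenocyte-like cells were 12.3% in WT and 6.89% in Sod1KO, 1 WT cell being left out, and in mSC-like cells 8.03% and 7.29%. At equal depth the nmSC-like and tenocyte-like shares kept their order between the genotypes, and the mSC-like shares overlapped. Thinning evens out depth but not the mix of clusters. In the nmSC-like class cluster 14 held 306 of 383 WT cells, at 267 CPM of Sod3. Cluster 7 held 605 of 890 Sod1KO cells, at 183 CPM.

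Within classes, Sod3 was a property of some clusters and not of others. In the tenocyte-like class, cluster 0 had 157 CPM in WT GFP+ and cluster 17 had 14.2 CPM. In the mesenchymal-like class, cluster 6, led by Pi16, had 156 CPM in WT GFP+, 125 CPM in Sod1KO GFP+ and 124 CPM in Sod1KO GFP-, and cluster 11, led by Myoc, had 48.0 CPM in Sod1KO GFP+ and 44.1 CPM in Sod1KO GFP-. The sorts of the Sod1KO genotype thus gave close values in these clusters. Among endothelial-like clusters, capillary cells of cluster 1, led by Car4 and Gpihbp1, held 1.16 CPM in WT GFP+, 2.46 CPM in Sod1KO GFP+, 0 in WT GFP-, with an interval that reaches 0.740 CPM, and 0.33 CPM in Sod1KO GFP-. Cluster 26, by contrast, which was led by Slc6a2 and Sfrp2 beside Car4 and held 98.0% WT GFP- cells, had 118 CPM.

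**Figure D2:**
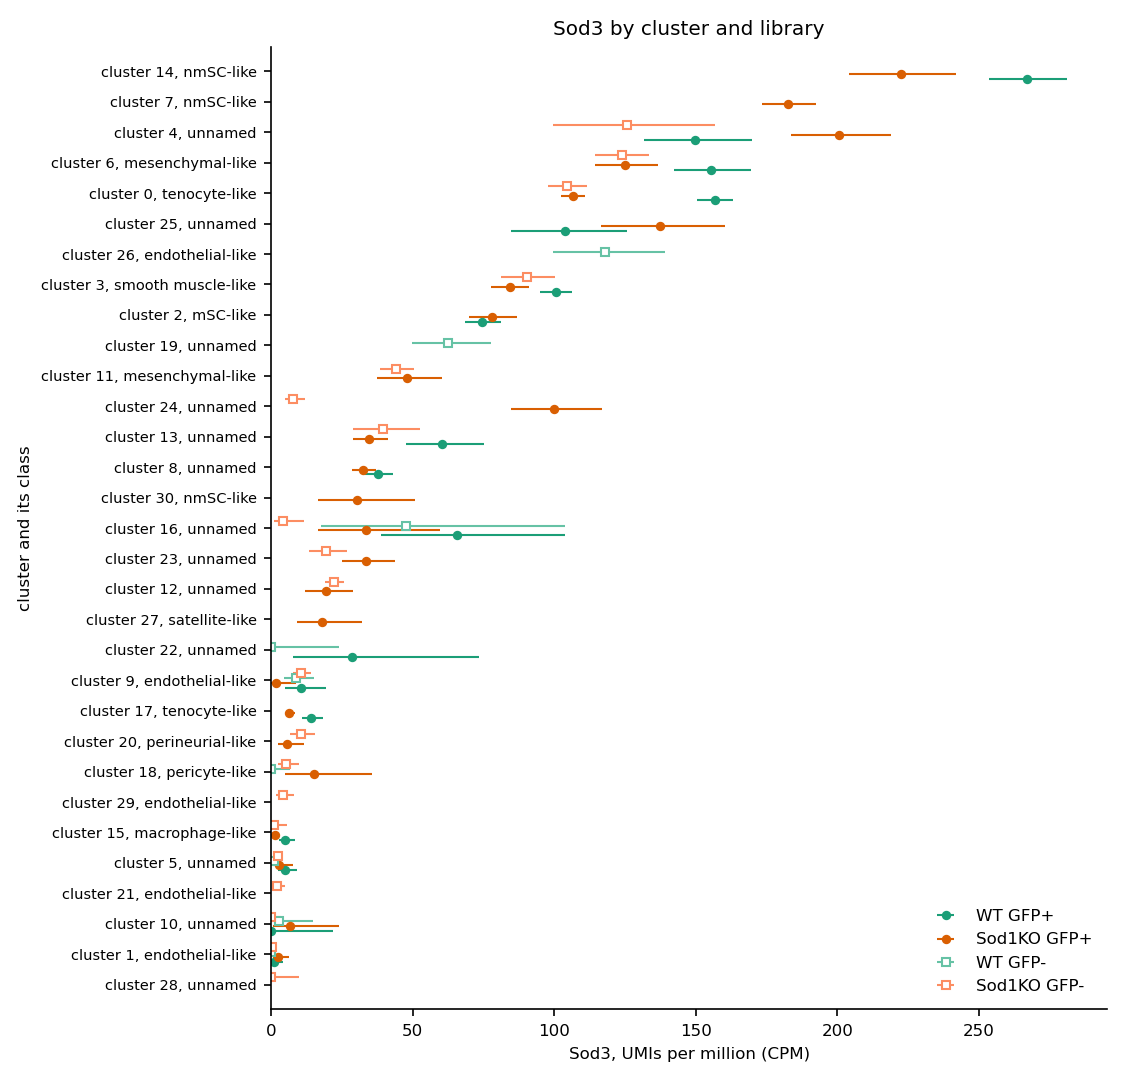
Sod3 level (horizontal axis, CPM, with exact Poisson 95% intervals) by cluster (vertical axis, with its class), 1 point per library with at least 50 cells of the cluster. Cluster 14 of the nmSC-like class is highest with 267 CPM in WT GFP+ and 222 CPM in Sod1KO GFP+, and the capillary endothelial-like cluster 1 lies at or below 2.46 CPM in all libraries.

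Sod3 was lower in Sod1KO than in WT GFP+ cells of 4 of the 5 named classes with a high level. In nmSC-like cells it was 252 CPM in WT and 181 CPM in Sod1KO, a log2 ratio of -0.47 (-0.57 to -0.38). In tenocyte-like cells it was 123 and 81.0 CPM, a ratio of -0.60 (-0.68 to -0.52), and the Sod1KO GFP- cells of the class had 90.9 CPM. In mesenchymal-like cells it was 143 and 104 CPM, a ratio of -0.45 (-0.62 to -0.28), and in smooth muscle-like cells 101 and 84.3 CPM, a ratio of -0.25 (-0.40 to -0.11). The mSC-like class differed by less than its counting interval, with 73.6 and 77.1 CPM and a ratio of 0.07 (-0.13 to 0.27). Of these only the tenocyte-like difference passed 1.5-fold, a fold that 8.43% of all genes compared in the class passed.

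The lower Sod3 level was also present in single clusters. Cluster 14 of the nmSC-like class gave 267 and 222 CPM, a ratio of -0.26 (-0.41 to -0.12), and without the clusters held by 1 library the class gave 257 and 203 CPM and a ratio of -0.34 (-0.48 to -0.19). In tenocyte-like cells, cluster 0 gave 157 and 107 CPM, a ratio of -0.55 (-0.64 to -0.47), with 105 CPM in Sod1KO GFP-. Cluster 17 gave 14.2 and 6.39 CPM, the latter near the 5.65 CPM of Sod1KO GFP+ perineurial-like cells, a level that was 0 once 10% ambient RNA was subtracted, so no ratio is read from it. In mesenchymal-like cells, cluster 6 gave -0.31. Of other measures that moved beside these values, the share of UMIs from Gm42418, a gene that overlaps ribosomal RNA, was 2.37% in WT and 4.30% in Sod1KO tenocyte-like cells and 2.01% and 4.18% in nmSC-like cells, where ribosomal protein genes took 6.92% and 9.43%. With mitochondrial and ribosomal genes and Gm42418 left out of the totals, Sod3 gave -0.56 in tenocyte-like and -0.38 in nmSC-like cells, and Sod1 gave 0.51 in tenocyte-like cells.

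Among unnamed clusters Sod3 went both ways. Cluster 13, led by Saa1, Trf and Fetub, had 60.4 CPM in WT and 34.5 CPM in Sod1KO GFP+ cells, a ratio of -0.81 (-1.22 to -0.38), in a cluster where 20.5% of all genes compared passed 1.5-fold. Cluster 4, of shallow cells led by Inmt, Rbp4 and Gdf10, had 150 and 201 CPM, a ratio of 0.42 (0.20 to 0.65), and 126 CPM in Sod1KO GFP-. Cluster 25, led by Actg2, had 104 and 137 CPM, a ratio of 0.40 (0.04 to 0.77). These were the only GFP+ classes or unnamed clusters with at least 50 UMIs whose Sod3 interval lay above 0.

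In the GFP- sort only endothelial-like cells held enough Sod3 UMIs to compare. Their level was 19.4 CPM in WT and 2.72 CPM in Sod1KO, a log2 ratio of -2.84 (-3.28 to -2.41), in a class where 22.0% of all genes compared passed 1.5-fold. The difference rested on cluster 26. Without it the levels were 2.05 and 2.72 CPM and the ratio was 0.41 (-0.44 to 1.36), and in GFP+ endothelial-like cells they were 4.91 and 2.83 CPM, from 17 and 9 UMIs. Whether cluster 26 belongs to the genotype or to the library cannot be told apart.

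**Figure D3:**
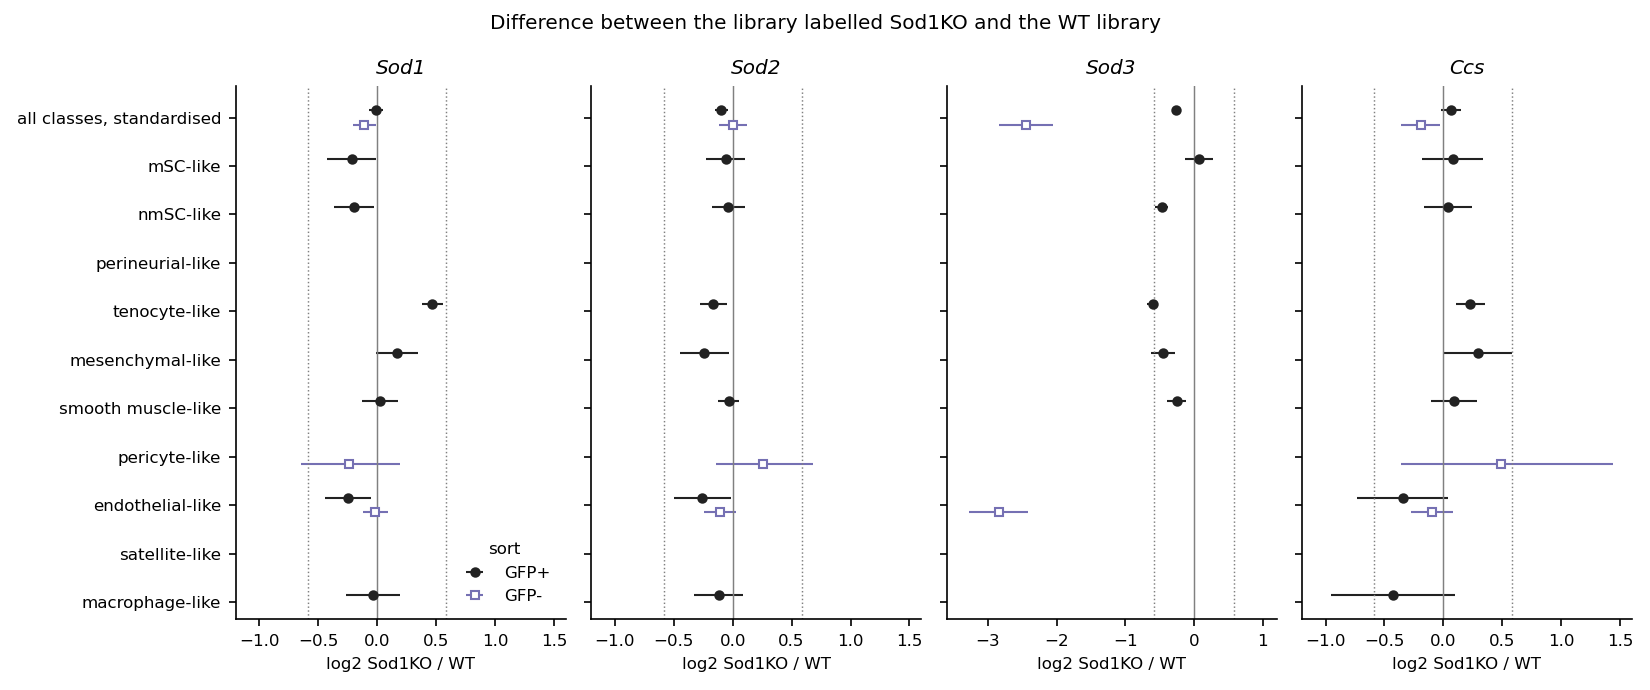
Log2 ratio of the Sod1KO to the WT level (horizontal axis) of each gene by class (vertical axis), for the GFP+ and GFP- sorts, with exact 95% counting intervals as bars, a line at 0, dotted lines at 1.5-fold and the standardised value over all classes on top. Sod1 is at 0.47 in tenocyte-like cells and at or below 0.17 in the other named GFP+ classes, Sod2 lies below 0 in every named GFP+ class shown, and Sod3 is at -0.60 in tenocyte-like cells.

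Over the 47 GFP+ comparisons of the 4 genes by class or unnamed cluster with at least 50 UMIs, 0 lay past 1.5-fold in the higher direction and 3 in the lower, which is 6.38%. The shares of all genes past this fold, either way, in the named GFP+ classes were 8.28% in mSC-like, 22.0% in nmSC-like, 8.43% in tenocyte-like, 10.1% in mesenchymal-like, 8.03% in smooth muscle-like, 9.62% in endothelial-like and 12.7% in macrophage-like cells, so the share among the 4 genes in this sort was not above that of other genes. The interval lay above 0 in 5 of the 47 comparisons and below 0 in 15. Of the 5 above 0, Sod1 in tenocyte-like cells was 1, Sod3 in clusters 4 and 25 were 2, and Ccs in tenocyte-like and mesenchymal-like cells were 2. Of the 15 GFP- comparisons, 2 lay past 1.5-fold in the higher direction, Sod1 and Sod2 in cluster 16, and 2 in the lower, Sod2 in cluster 10 and Sod3 in endothelial-like cells, which is 26.7%. The shares of all genes past this fold in the same sort were 67.0% in cluster 16, 41.2% in cluster 10 and 22.0% in endothelial-like cells. They were 19.2% in pericyte-like cells and 14.7% in cluster 5. Sod1 in cluster 16 was 71.5 CPM from 9 UMIs and 123 CPM from 92 UMIs, a ratio of 0.79 (-0.20 to 1.96).

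A comparison with the class mix held fixed was made by averaging the class levels with the same weights in both genotypes. In GFP+ cells, over 14 classes or unnamed clusters with 4259 WT and 5490 Sod1KO cells, Sod1 was 92.6 CPM in WT and 92.0 CPM in Sod1KO, a log2 ratio of -0.01 (-0.07 to 0.05). Ccs was 45.5 and 47.5 CPM, a ratio of 0.06 (-0.02 to 0.15). Sod2 was 104 and 97.4 CPM, a ratio of -0.10 (-0.15 to -0.04), less than the difference between the whole libraries. Sod3 was 108 and 90.0 CPM, a ratio of -0.27 (-0.33 to -0.21). Sod2 and Sod3 were thus lower in the Sod1KO than in the WT library, and none of the 4 genes passed 1.5-fold, a fold that 1750 of 17356 genes (10.1%) passed. Sod3 stood at the 14.1 percentile of all genes, Sod2 at the 33.7, Sod1 at the 49.4 and Ccs at the 62.8, and the median gene had a ratio of -0.01.

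In GFP- cells, over 5 classes or unnamed clusters with 1116 WT and 2810 Sod1KO cells, Sod1 was 127 CPM in WT and 117 CPM in Sod1KO, a ratio of -0.11 (-0.21 to -0.01). Ccs was 44.4 and 38.8 CPM, a ratio of -0.19 (-0.36 to -0.03). Sod2 was 82.9 CPM in both, a ratio of 0.00 (-0.12 to 0.12). Sod3 was 14.1 and 2.59 CPM, a ratio of -2.44 (-2.84 to -2.05), and was the only one of the 4 genes past 1.5-fold, a fold that 3060 of 14222 genes (21.5%) passed in this sort. The median gene had a ratio of -0.05 here. Sod1 stood at the 43.4 percentile of all genes, Ccs at the 33.8, Sod2 at the 55.3 and Sod3 at the 0.43. Without the clusters held by 1 library the Sod3 ratio was -0.64, and those of Sod1, Sod2 and Ccs were -0.15, 0.06 and -0.21. In that Sod3 value, cluster 16 gave 47.6 CPM from 6 UMIs in WT and 4.02 CPM from 3 UMIs in Sod1KO. Endothelial-like cells and cluster 5 went the other way, with ratios of 0.41 and 1.01, as did pericyte-like cells with 0 and 5.40 CPM. Cluster 10 held 1 and 0 UMIs. No direction is therefore read from the -0.64.

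**Figure D4:**
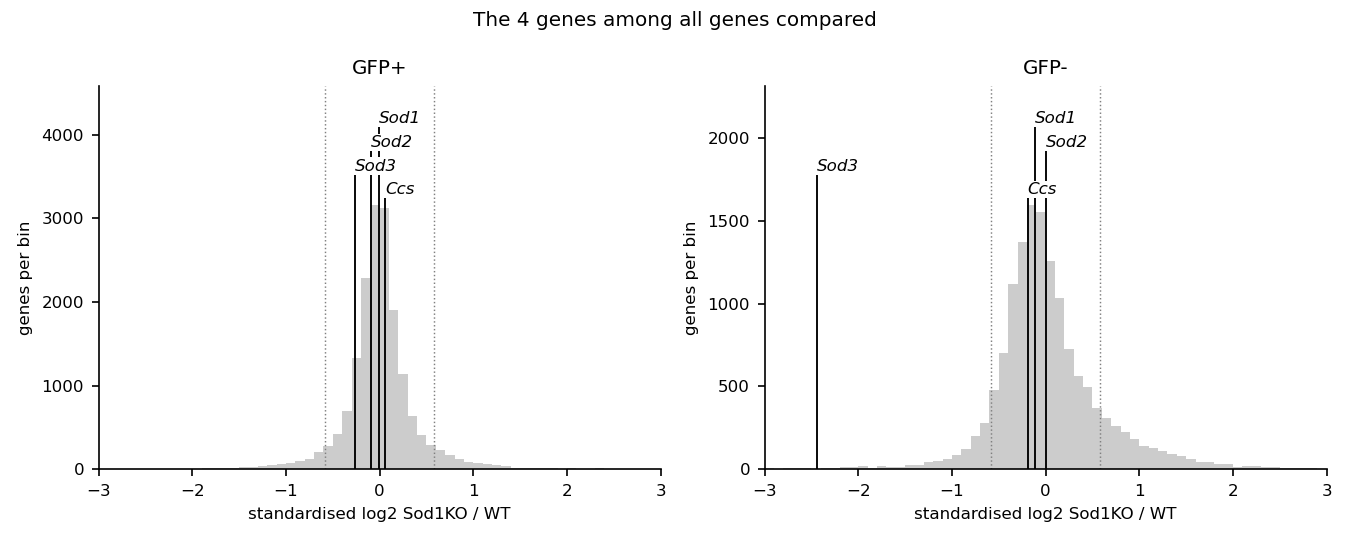
Number of genes (vertical axis) by standardised log2 ratio of Sod1KO to WT (horizontal axis) in the GFP+ and GFP- sorts, with the 4 genes marked by lines; 36 GFP+ and 110 GFP- genes lie outside the axis. In GFP+ cells the 4 genes lie between -0.27 and 0.06, inside the main body of genes, and in GFP- cells Sod3 lies apart at -2.44.

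Genes that supply the metals of the enzymes, make superoxide or remove hydrogen peroxide were read in the same way, as 6 lists with 84 genes, of which 80 had enough UMIs in GFP+ cells. Of the 80, 4 passed 1.5-fold in the standardised GFP+ comparison, which is 5.0% against 10.1% of all genes, and all 4 were lower in Sod1KO. Of copper uptake, delivery and export, 2 of 17 genes did, with a median ratio of 0.04. They were Mt1 and Mt2, the metallothioneins, which bind zinc and copper. Of secreted and membrane copper enzymes 2 of 11 did, with a median of -0.14, namely Loxl4, a lysyl oxidase that cross-links collagen, and Dbh, dopamine beta-hydroxylase. None of 9 genes of manganese transport, 14 superoxide sources, 16 genes of hydrogen peroxide removal and 13 known regulators of superoxide dismutase genes passed it, with medians of 0.04, -0.12, 0.00 and -0.05.

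Mt1 was 2705 CPM in WT and 1634 CPM in Sod1KO GFP+ cells, a standardised log2 ratio of -0.73 (-0.74 to -0.71), and 190 and 132 CPM in GFP- cells, a ratio of -0.53. It was lower in each of the 7 named GFP+ classes, from -1.76 in endothelial-like to -0.52 in mesenchymal-like cells. Mt2 was 664 and 376 CPM, a ratio of -0.82, and was also lower in all 7 classes, with -1.02 in tenocyte-like and -1.38 in endothelial-like cells. Mt3 gave -0.50, with 253 and 143 CPM in tenocyte-like cells. Of the named GFP+ classes Mt1 was highest in mSC-like cells, with 5138 and 3095 CPM, and lowest in endothelial-like cells, with 768 and 227 CPM. The part of ambient RNA in the metallothionein differences was not tested. The metallothioneins are not superoxide dismutases or their chaperone, and their values are set beside Sod1, Ccs and Sod3 because all bind copper.

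Among the other list genes, Prdx2, a peroxiredoxin that removes hydrogen peroxide, was 211 CPM in WT and 254 CPM in Sod1KO GFP+ cells. Its ratio was 0.26 (0.23 to 0.30), and its largest ratio in a named class was 0.47 in nmSC-like cells with 248 and 343 CPM. In that class 22.0% of all genes compared passed 1.5-fold. Cluster 14 held most of its WT cells and cluster 7 most of its Sod1KO cells. The part of this mix in the nmSC-like ratios of Prdx2, and of Loxl2 below, was not tested. Txnrd2, the mitochondrial thioredoxin reductase, gave 0.22 and Prdx6 -0.19. Of manganese and iron transporters, Slc40a1 gave 0.52 and 25.5 and 41.2 CPM in macrophage-like cells, Atp2c1 gave 0.13 and Slc39a14 gave 0.10. Of superoxide sources, Nox4, an NADPH oxidase, gave 0.30, Duox1 -0.39 and Nos2 -0.23. Nox4 was 2.81 and 12.1 CPM in smooth muscle-like cells, a class where its level was far under the 99.5 and 97.5 CPM of mesenchymal-like cells, and the part of free RNA in that difference was not tested. Of the remaining copper enzymes Moxd1 gave -0.41 and Loxl2, a lysyl oxidase, -0.16. Loxl2 was 448 and 392 CPM in tenocyte-like cells, a ratio of -0.20, but went the other way where its level was low, with 7.49 and 20.6 CPM in nmSC-like cells, a ratio of 1.46 (0.99 to 1.96), and 2.57 and 9.22 CPM in smooth muscle-like cells, a ratio of 1.84 (1.22 to 2.50), and the part of free RNA in these was not tested. Of regulators Bach1 gave 0.16, Sp1 -0.15 and Nfe2l2, which drives antioxidant genes, -0.14.

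Within classes the lists held 12 of 63 genes past 1.5-fold in nmSC-like, 8 of 70 in tenocyte-like, 7 of 62 in smooth muscle-like, 7 of 58 in macrophage-like, 5 of 55 in endothelial-like, 4 of 62 in mesenchymal-like and 4 of 57 in mSC-like GFP+ cells. That was 19.0% against 22.0% of all genes in nmSC-like, 11.4% against 8.43% in tenocyte-like and 11.3% against 8.03% in smooth muscle-like cells. It was 12.1% against 12.7% in macrophage-like and 9.09% against 9.62% in endothelial-like cells. Mesenchymal-like cells gave 6.45% against 10.1% and mSC-like cells 7.02% against 8.28%. In GFP- cells 20 of 76 list genes passed the fold, of which 9 were higher and 11 lower, against 21.5% of all genes. Without the clusters held by 1 library 14 list genes did, of a number compared that is not reported here, and 19.7% of all genes did.

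The genes whose levels over the classes were most like those of each gene were found by Pearson correlation of log2(CPM + 1) over 58 points, each a class or unnamed cluster in a library, among 14654 genes. The points share libraries, depth and, in part, cells of the same origin, so the correlations are a description. Among the genes most like it, Sod1 had Rps27 with 0.83, Rps21 with 0.81, Rps29 with 0.80 and Nsa2 with 0.77, of which the first 3 encode ribosomal proteins. Sod2 had Msrb1 with 0.77, Atp5g3 with 0.75, Sdhc with 0.74 and Atp5a1 with 0.74, of which the last 3 encode subunits of the respiratory chain and ATP synthase in the mitochondrion. Sod3 was most like Col16a1 with 0.82, Olfml2b with 0.80, Mrgprf with 0.79, Pxylp1 with 0.79 and Pmepa1 with 0.78. Ccs was most like Cbr1 with 0.93, Dpm2 with 0.91, Get4 with 0.89, Flot1 with 0.89 and Acaa1a with 0.88. By Spearman correlation, which uses ranks, these 5 gave 0.84, 0.66, 0.61, 0.66 and 0.76. The points include shallow clusters nearly without Ccs, with 0 CPM in cluster 22 of WT GFP+ and 7.92 CPM in cluster 28 of Sod1KO GFP-. Their part in the Pearson values was not tested. Among the members, Sod1 correlated at -0.29 with Sod2, at -0.43 with Sod3 and at -0.26 with Ccs.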

How the data were processed

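Single-cell suspensions of sorted muscle cells were run on the 10x 3' HT v3 chemistry. The deposited matrices hold counts, whole UMI numbers per gene and cell, which the authors made with Cell Ranger; the matrix headers and the submitters' processing notes name version 7.1.0 and build mm10, whereas the study's methods name other versions. Seurat 4.30 is also named in the notes. Such versions count intronic reads by default. The ambient RNA correction, doublet caller and batch integration of the study were not used here.

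The members and gene lists were chosen with earlier results of these data known. Cells with over 200 genes and under 10% of UMIs from 13 mitochondrial genes were kept, and doublets were removed by a simulated-doublet neighbour score (50 neighbours, 0.8% per 1000 barcodes), which took 210 WT GFP+, 366 Sod1KO GFP+, 27 WT GFP- and 287 Sod1KO GFP- cells. The 4 genes were left out before 2000 variable genes, 30 principal components, 20 neighbours and Leiden clustering at resolution 1. The 4 libraries were clustered jointly. A cluster was named from at least 3 markers, by a rule set after looking at the clusters. Clusters whose median depth, even times 3, stayed under that of their samples, and clusters led by genes of another type, were left unnamed. Levels carry exact Poisson intervals, ratios within a class exact conditional binomial intervals, and standardised ratios a delta-method interval, over classes with at least 50 cells in both libraries. The weights were pooled cell shares. A gene was compared where the pair of libraries held at least 50 UMIs. For the shares of all genes within a class, a 0 was set to a floor of 3 UMIs. No ratio within a class was given for a member gene with a 0 in a library, and the standardised levels kept a 0 as it was. Genes named from the lists were up to 3 per list with the largest standardised GFP+ ratio, at least 100 UMIs in each GFP+ library and the same direction in GFP-, and for likeness the 5 genes with the highest correlation among those at 10 CPM or more at some point, of which some are not reported here. Loxl4, Dbh, Mt1 and Mt2 are also named as the genes past the fold. Unnamed clusters were singled out after their values were seen. The code was checked on simulated data. Python 3.11.15, numpy 2.4.6, scipy 1.17.1, scikit-learn 1.9.0 and leidenalg 0.10.2 were used.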

Additional observations from a re-analysis of the deposited data

Results flagged for a closer look

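The Sod1 difference went opposite ways in 2 classes of the GFP+ sort, with a log2 ratio of Sod1KO to WT of -0.25 in endothelial-like cells and 0.47 in tenocyte-like cells, and both intervals left out 0. The endothelial-like value was not shared by the whole class, since cluster 9 gave -0.64 and cluster 1 gave -0.004. The Sod3 difference went opposite ways in 2 unnamed GFP+ clusters, with -0.81 in cluster 13 and 0.42 in cluster 4. With 1 library per group the difference between the classes was not tested and these classes were picked for their opposite directions.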

How the results depend on the processing

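No paired analysis was possible because each group has 1 library and the replicate number, 1 throughout, links none. Standardised ratios in GFP+ stayed within -0.08 to 0.11 for Sod1, -0.34 to -0.05 for Sod2, -0.39 to -0.18 for Sod3 and -0.04 to 0.12 for Ccs. With equal class weights they moved to -0.080 for Sod1, -0.20 for Sod3 and -0.035 for Ccs in GFP+ and to 0.21 for Sod2 and -0.39 for Ccs in GFP-. Over whole libraries, where the class mix differs, they were 0.11 for Sod1 and -0.34 for Sod2 in GFP+, and Sod3 in GFP- turned to 0.18. By the mean of per-cell CPM, GFP- gave 0.085 for Sod1, -0.16 for Sod2 and -3.07 for Sod3. Median-of-ratios scaling gave -0.0100 for Sod1 in GFP-. Sod3 moved with the way classes were made. In GFP+ it was -0.34 by a per-cell marker rule and -0.21 without the clusters held over 80% by 1 library, and, in alternatives chosen after seeing the data, -0.18 with clusters in place of classes and -0.39 over named classes only. In GFP- it was -0.21 without doublet removal, -0.80 by the marker rule, -0.64 without the clusters held by 1 library, -0.66 with clusters in place of classes, -6.03 with 10% ambient RNA subtracted and -3.93 without the 1% of cells with most UMIs of the gene. Sod3 in endothelial-like cells reversed to 0.78 under the stricter filter, 0.44 by the marker rule and 0.13 without those 1% of cells in GFP+, and to 1.49 without doublet removal and 0.41 without the clusters held by 1 library in GFP-. Apart from cluster 26, the cause of these moves was not tested.

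Under the stricter filter the tenocyte-like class held 102 WT GFP+ cells in place of 609. List genes past the fold numbered 1 in GFP+ and 9 in GFP- at a fold of 2, and 11 in GFP- with at least 200 UMIs. The shares of all genes at these settings are not reported here, so nothing is read from these counts. Of the 5 genes most like each member, Spearman correlation kept 1 for Sod1, 1 for Sod2, 3 for Sod3 and 2 for Ccs. Keeping the 4 genes in the clustering changed no value, since none was among the variable genes. With 1 library per group no difference has a replicate check, and Sod3 in endothelial-like and macrophage-like cells rests on few UMIs.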

Other observations

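Cluster 24, an unnamed cluster of cycling cells led by histone genes and Cdk1, held 60 Sod1KO GFP+ and 81 Sod1KO GFP- cells. Sod3 was 99.8 CPM (84.8 to 117) in its GFP+ cells and 7.80 CPM (4.83 to 11.9) in its GFP- cells, whereas Sod1 was 97.3 and 116 CPM. Cluster 19, held 87.8% by the WT GFP- library and led by Dlk1, Esm1 and Cd300lg, had a Sod3 level of 62.5 CPM there.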
